A study of Mus musculus with 53 samples.

Results

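The genes described here encode the hypophysiotropic factors, the hypothalamic messengers that govern the anterior pituitary, together with messengers that act on or beside them. The members were chosen by symbol: *Crh*, *Trh*, *Sst*, *Ghrh*, *Gnrh1*, *Kiss1*, *Tac2*, *Th* and *Gal*, which is 9 genes against 53379 genes in the count tables. *Kiss1* had no row under its symbol and was not analysed here, so values are given for 8 members. RNA was sequenced from the paraventricular nucleus (PVN) and arcuate nucleus (ARC), which had been laser captured from cresyl violet stained sections of mouse brain.

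Neurons of the PVN make corticotropin releasing hormone (*Crh*) and thyrotropin releasing hormone (*Trh*), and release them into the portal vessels of the median eminence to drive the adrenal and thyroid axes. Somatostatin (*Sst*) holds back growth hormone, and growth hormone releasing hormone (*Ghrh*), made in the ARC, drives it. Tyrosine hydroxylase (*Th*), the rate-limiting enzyme of dopamine synthesis, marks ARC neurons whose dopamine restrains prolactin, and gonadotropin releasing hormone (*Gnrh1*) is controlled by ARC neurons that make neurokinin B (*Tac2*). Galanin (*Gal*) is a peptide made in several of these neuron types.

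All mice were on a C57BL/6 background and were either *Nnat*+/+ (wild type) or *Nnat*+/-p, which carry a null allele on the paternal chromosome. *Nnat* is imprinted and expressed from the paternal copy. The mice are labelled adult, the protocol gives 13 to 14 weeks for males, and they were fed chow or a 45% high fat diet (HFD). The null allele was inherited through the germline from heterozygous fathers, so it was not limited to chosen neurons. *Nnat*+/-p mice on chow were divided by labelled body weight into non-obese (males under 35 g, females under 25 g) and obese (males over 37 g, females over 30 g), whereas the HFD groups were not divided. The female PVN held 4 *Nnat*+/+, 3 non-obese and 3 obese *Nnat*+/-p libraries, all on chow. In the male PVN there were 3 *Nnat*+/+, 3 non-obese and 4 obese *Nnat*+/-p libraries on chow, and 6 *Nnat*+/+ and 3 *Nnat*+/-p libraries on HFD. In the male ARC there were 2 *Nnat*+/+, 4 non-obese and 4 obese *Nnat*+/-p libraries on chow, and 6 *Nnat*+/+ and 4 *Nnat*+/-p libraries on HFD. Replicates are named below by the number in their label.

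The 49 libraries used held between 1479953 and 30228973 counts (median 5948222), and levels are given as CPM, counts scaled to a common library size with TMM factors computed over all of them. *Nnat* itself was at 421 ± 83.6 CPM in *Nnat*+/+ libraries (SD, n = 21, range 270 to 573) and at 3.59 ± 3.1 CPM in *Nnat*+/-p libraries (SD, n = 28, range 0.324 to 13.6), so the genotypes did not overlap. The PVN markers *Avp*, *Oxt* and *Sim1* together reached 388 to 1730 CPM in 17 of the 19 male PVN libraries, against 0 to 57.4 CPM in the ARC. The exceptions were the library labelled *Nnat*+/+ on chow, replicate 15, at 1.18 CPM, and the library labelled *Nnat*+/+ on HFD, replicate 24, at 17.6 CPM. Their summed ARC markers (*Agrp*, *Npy*, *Pomc*, *Cartpt* and *Tbx3*) were 196 and 81.9 CPM, where the other 17 held 13.5 to 37.7 CPM, so fitted differences that use them are also given without them. Weight is the only label that could tie libraries to mice. ARC replicates 39 and 40 share one, as do female *Nnat*+/+ PVN replicates 1 and 2, so p-values measure the spread between libraries.

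The sequences below are shown because *Sst*, *Th* and *Ghrh* are the members whose levels in the ARC did not overlap between the diets in wild-type mice, a pattern that 7.52% of 15753 genes showed against only 2 chow libraries. Of the 3, *Sst* alone was called there. Each is a stretch before the gene's start in the RefSeq promoter table (GRCm38.p6), printed along the gene's strand. In the first 2, capitals mark the cAMP response element TGACGTCA, to which CREB proteins bind. In the last, capitals mark the octamer ATGCAAAT as it reads on the opposite strand, a motif of POU domain factors.

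Sst, chr16:23890859-23890918, minus strand: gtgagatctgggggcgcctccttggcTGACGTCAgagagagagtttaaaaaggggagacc

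Th, chr7:142900007-142900066, minus strand: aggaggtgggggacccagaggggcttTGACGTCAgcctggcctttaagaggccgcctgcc

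Ghrh, chr2:157346841-157346900, minus strand: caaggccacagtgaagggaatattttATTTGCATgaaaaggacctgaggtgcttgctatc

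The element lay 48 bases before the start of *Sst* and 45 bases before that of *Th*. The octamer lay 219 bases before 1 of 2 listed starts of *Ghrh*, the one further upstream. Which start these libraries used was not tested. Both strands of the 250 bases before each start were searched. TGACGTCA was found in 508 of 32851 promoters (1.55%) and ATGCAAAT in 1.6% of them. The windows of *Trh*, *Tac2* and *Gal* held neither, which says only that these letters are not in those windows. A further motif, the homeodomain core TAATTA, which 1590 promoters held (4.84%), was matched among the members only in the window of a second *Ghrh* start.

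The members fell into a PVN and an ARC set. In male mice 7 of the 8 members differed between the nuclei at an adjusted p under 0.25 in edgeR's quasi-likelihood test, where 34.4% of 21400 genes did, 20.5% as higher in PVN and 13.8% as lower. *Crh* and *Trh* were higher in the PVN, as was *Th* by a call lost without 1 library, whereas *Sst*, *Gal*, *Ghrh* and *Tac2* were higher in the ARC. The nuclei were in separate count tables, so nucleus and table cannot be told apart, and in bulk RNA a difference in the number of cells of a type and in the RNA per cell cannot be told apart either. The median over all genes was 0.13 on the log2 scale towards the PVN.

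*Crh* (chr3:19693401-19695396, GRCm38, minus strand) was high in the PVN and at or near 0 in the ARC. It was at 65.2 ± 21.7 CPM in male PVN (SD, n = 17, without replicates 15 and 24) and at 0.587 ± 1.33 CPM in ARC (SD, n = 20), where 13 of 20 libraries had no count. A count of 0 allows up to 0.445 to 1.87 CPM in those 13 libraries. The fitted difference was 6.65 on the log2 scale (SE 0.44, edgeR adjusted p = 1.94e-17), and 6.81 without replicates 15 and 24. Replicate 15 itself held 0.839 CPM of *Crh* and replicate 24 held 20.9 CPM, both below every other male PVN library.

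*Trh* (chr6:92242061-92244650, minus strand) was the most abundant member of the PVN per kilobase of exon. Its level was 133 ± 37.1 CPM in male PVN (SD, n = 17) and 20.6 ± 14.9 CPM in ARC (SD, n = 20). The fit, which here and for the members that follow keeps all 19 male PVN libraries, gave a difference of 2.77 on the log2 scale (SE 0.26, edgeR adjusted p = 4.2e-12), and 2.90 without replicates 15 and 24. No ARC library reached the lowest of those 17 PVN libraries, 47.4 against 64.9 CPM.

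*Tac2* (chr10:127724478-127731768, plus strand) showed the opposite pattern. It was counted in all 20 ARC libraries, at 2.52 to 26 CPM, and had no count in 11 of the 17 male PVN libraries, for which a count of 0 allows up to 0.338 to 0.87 CPM. Replicates 15 and 24 held 7.39 and 9.39 CPM, the highest values of the male PVN. With them in the fit the PVN minus ARC difference was -3.44 on the log2 scale (SE 0.56, edgeR adjusted p = 5.11e-06), without them it was -5.38, and with a block for labelled weight -6.07.

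*Ghrh* (chr2:157329497-157347506, minus strand) was at 8.82 ± 7.84 CPM in ARC (SD, n = 20) and at 1.48 ± 1.2 CPM in male PVN (SD, n = 17), and the ranges overlapped. The difference was -1.68 on the log2 scale (SE 0.38, edgeR adjusted p = 0.00113) with replicates 15 and 24, -2.07 without them and -2.86 with the weight block. *Sst* (chr16:23889573-23890958, minus strand) was abundant in both nuclei, at 104 ± 59.1 CPM in ARC (SD, n = 20) and 38.4 ± 24.8 CPM in male PVN (SD, n = 17), with a difference of -1.10 (SE 0.2, edgeR adjusted p = 3.17e-05), and -1.18 without replicates 15 and 24. *Gal* (chr19:3409915-3414544, minus strand) was at 27.4 ± 16.2 CPM in ARC (SD, n = 20) and 11.1 ± 6.47 CPM in male PVN (SD, n = 17). Its fitted difference was -0.80 with replicates 15 and 24 (SE 0.27, edgeR adjusted p = 0.0336) and -1.07 without them. In chow-fed wild-type mice mean *Sst* was 53.5 CPM in ARC and 57.1 CPM in PVN (45.7 without replicate 15). Mean *Gal* was 17.1 and 22.2 CPM there (18.2 without replicate 15). In chow-fed *Nnat*+/-p mice the ARC means were higher, at 65.5 against 27.6 CPM for *Sst* and 20.6 against 10.4 CPM for *Gal*. Wild-type mice on HFD had mean *Sst* of 133 CPM in ARC and 32.4 CPM in PVN, without replicate 24.

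*Th* (chr7:142892752-142931128, minus strand) was the least separated of the called members. It was at 16.2 ± 6.27 CPM in male PVN (SD, n = 17) and 14.4 ± 8.18 CPM in ARC (SD, n = 20), a fitted difference of 0.41 (SE 0.19, edgeR adjusted p = 0.148), and 0.39 without replicates 15 and 24. Without those libraries its mean was 14.8 CPM in PVN and 9.12 CPM in ARC on chow, but 17.7 and 19.7 CPM on HFD. The call was lost without PVN replicate 22, which held the highest *Th* of the male PVN at 27 CPM (0.28, adjusted p = 0.371), and when libraries of the same labelled weight were blocked (0.15, adjusted p = 0.702). *Gnrh1* (chr14:67745181-67749439, plus strand) was at or near 0 in both nuclei and was not called (-0.38, SE 0.52, edgeR adjusted p = 0.729, and -0.22 without replicates 15 and 24), and its direction turned in 3 of the fits that left out 1 library.

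**Figure D1:**
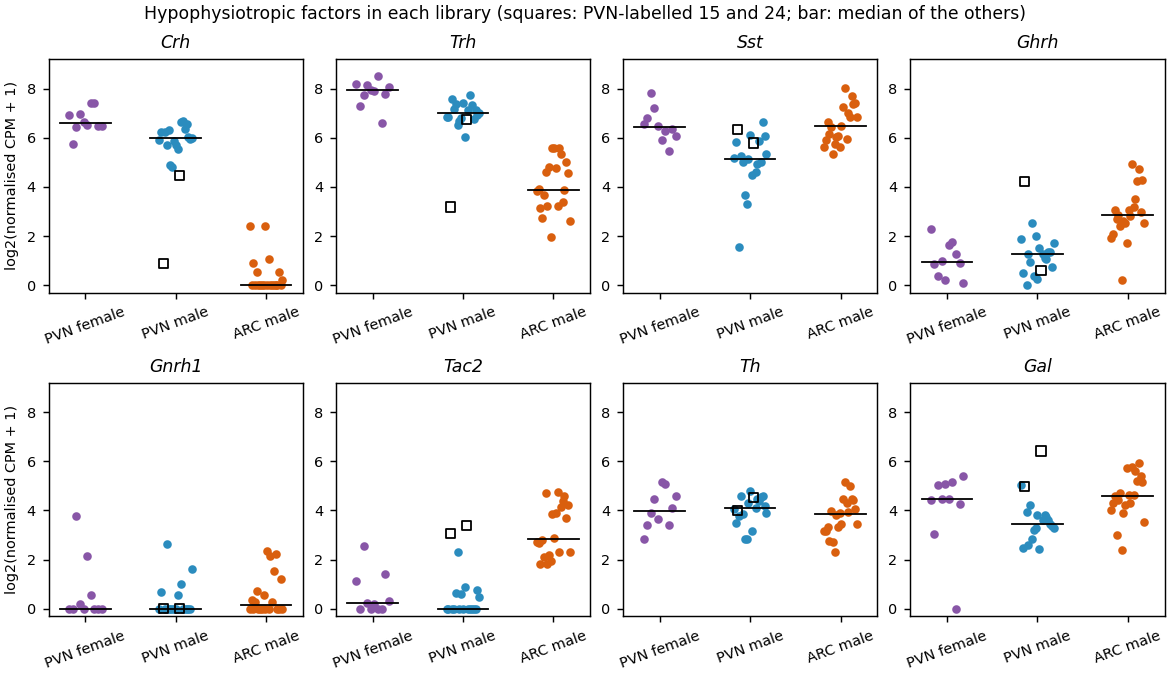
Level of each member as log2(CPM + 1), 1 point per library, in the female PVN (purple), male PVN (blue) and male ARC (orange). Open squares mark the male PVN libraries 15 and 24, and the bar is the median of the others. *Crh* and *Trh* are high in the PVN, *Tac2* and *Ghrh* in the ARC. The squares lie below the other male PVN points for *Crh* and above them for *Tac2*. For *Trh* only replicate 15, at 8.06 CPM, lies apart, and replicate 24, at 107 CPM, is among the others.

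Compared per kilobase of exon, so that genes of different length can be set side by side, *Trh* led the male PVN with a median of 90.8 CPM per kilobase. *Sst* (47.1) and *Crh* (46.9) followed with ranges that overlapped almost wholly. Below them came *Gal* (12.4), *Th* (6.8) and *Ghrh* (2.07), and the medians of *Tac2* and *Gnrh1* were 0. The female PVN had the same leading order, at 176 CPM per kilobase for *Trh*, 117 for *Sst* and 71.8 for *Crh*. In the ARC *Sst* led with a median of 121 CPM per kilobase and a range of 54.3 to 356, followed by *Gal* at 29.6. *Trh* (10), *Ghrh* (9.25), *Th* (5.69) and *Tac2* (4.48) had overlapping ranges there.

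The question of the chow-fed groups was whether loss of *Nnat*, with or without obesity, went with altered hormone transcripts. No member was called by edgeR in any of the 9 chow comparisons. In the female PVN *Sst* was the member with the largest separation by genotype. The *Nnat*+/+ females held 93.7, 112, 224 and 148 CPM, non-obese *Nnat*+/-p females 76.6, 43.1 and 80.3 CPM, and obese *Nnat*+/-p females 88.9, 59 and 65.5 CPM. Every *Nnat*+/-p library lay below every *Nnat*+/+ library, a pattern that 0.562% of 15485 genes showed. Summed ARC markers in the same libraries were at 31.2 to 73.9 CPM in *Nnat*+/+ (median 54.2), 23.5 to 49.4 CPM in non-obese and 21.5 to 31.6 CPM in obese females, and their part in the *Sst* levels was not tested. Astrocyte markers were at 167 to 186, 152 to 232 and 228 to 292 CPM in the same groups. The difference from *Nnat*+/+ was -1.07 in obese (SE 0.34, unadjusted p = 0.00609) and -1.15 in non-obese females (SE 0.34, unadjusted p = 0.00381) on the log2 scale. Neither passed after adjustment in edgeR (both adjusted p = 1), and the genes called in these comparisons were 0.0129% and 0.00646% of those tested. DESeq2 called *Sst* in both (-1.14 and -1.18, adjusted p = 0.227 and 0.171), while its scaling moved the median of all genes to -0.23 and -0.22, from -0.05 and -0.09 in edgeR. Without *Nnat*+/+ replicate 3, which held 224 CPM, the edgeR differences were -0.76 and -0.84.

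The differences of obese and of non-obese females from *Nnat*+/+ share the same 4 *Nnat*+/+ libraries and are not independent. The obese and non-obese females, which share neither libraries nor weight class, differed from each other in *Sst* by 0.08 on the log2 scale (95% interval -0.62 to 0.77). No gene was called between them by edgeR (percent called 0), although 474 genes had an unadjusted p under 0.05 and DESeq2 called 62. The other members of the female PVN overlapped between the groups and were not called. *Crh* was at 95 ± 33.3 CPM in *Nnat*+/+ (SD, n = 4), 142 ± 45.9 in non-obese (SD, n = 3) and 92.2 ± 5.42 in obese *Nnat*+/-p mice (SD, n = 3). *Trh* was at 237 ± 64.3, 227 ± 135 and 252 ± 15.8 CPM in the same groups. *Gnrh1* reached 12.8 CPM in *Nnat*+/+ replicate 3 and 3.38 CPM in obese replicate 8, and was below 0.5 CPM in the other 8 libraries.

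In the male PVN on chow *Sst* had its lowest group mean in obese *Nnat*+/-p mice, with wide scatter. It was at 35.4, 56 and 79.9 CPM in *Nnat*+/+, the last of these being replicate 15, at 31.3, 11.6 and 68 CPM in non-obese, and at 1.94, 37.4, 8.99 and 34 CPM in obese mice. The obese group therefore overlapped the lowest *Nnat*+/+ library. The difference between obese and *Nnat*+/+ mice was -1.47 on the log2 scale (SE 0.57, unadjusted p = 0.0165, edgeR adjusted p = 1), and -1.15 without replicate 15. *Gal* differed by -1.31 (SE 0.55, unadjusted p = 0.0257, edgeR adjusted p = 1) and by -1.02 without replicate 15, from 32, 4.52 and 30.1 CPM in *Nnat*+/+ to 14.2, 5, 8.12 and 8.87 CPM in obese mice. Summed forebrain excitatory neuron markers (*Nrgn*, *Camk2a*, *Neurod6* and *Slc17a7*) were at 129, 439 and 622 CPM in these *Nnat*+/+ libraries. They were at 121 to 208 CPM in non-obese and 95.4 to 218 CPM in obese mice. Without replicate 15 the highest *Nnat*+/+ value was 439 CPM. Their part in the *Sst* and *Gal* levels was not tested.

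The other 4 tested members of this comparison lay between -2.52 (*Ghrh*) and 0.77 (*Trh*) on the log2 scale, and between -0.40 and 0.26 without replicates 15 and 24, and 0.0256% of 15618 genes were called. *Crh* in obese males was at 73.7, 50.6, 27.3 and 57.3 CPM, within the range of 28.4 to 79.5 CPM of non-obese males except for 1 library. *Trh* ranged from 103 to 190 CPM in obese and from 90.2 to 170 CPM in non-obese males. Non-obese against *Nnat*+/+ males (percent called 0.0128) and obese against non-obese males (percent called 0, with 260 genes at an unadjusted p under 0.05 and 0 by DESeq2) gave no member with an unadjusted p under 0.05, where 2.56% and 1.66% of genes had one. The obese effect on *Sst* did not differ detectably between the sexes, with a female minus male difference of 0.45 (95% interval -0.79 to 1.68), or 0.08 without replicates 15 and 24, in a test that called 4.22% of 24072 genes and no member.

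**Figure D2:**
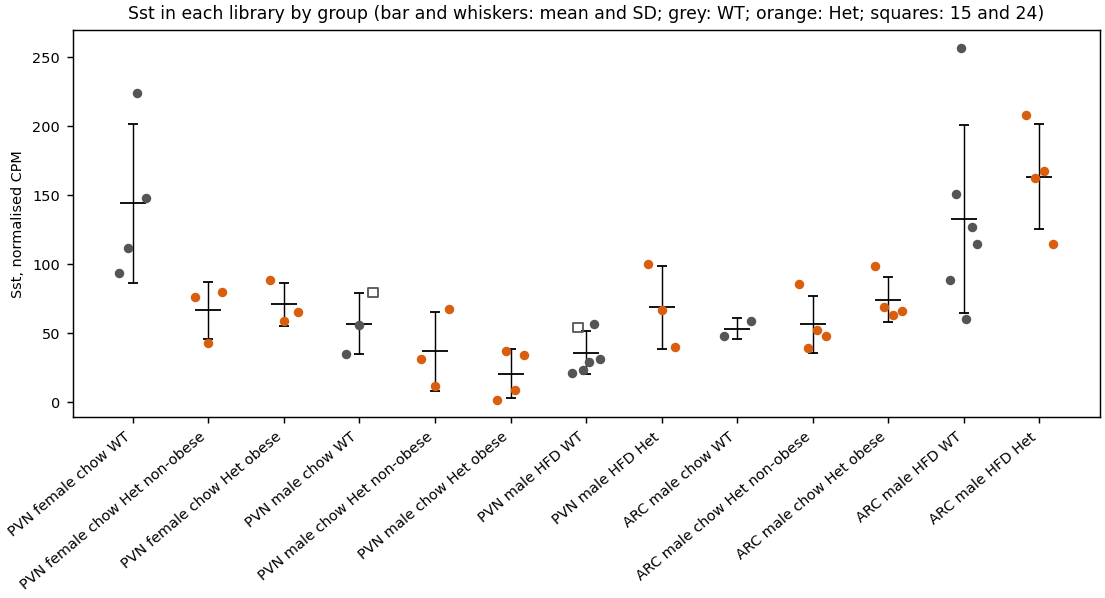
*Sst* level (CPM) in every library by group, 1 point per library, in grey for *Nnat*+/+ and orange for *Nnat*+/-p, with the group mean and SD. Open squares mark the male PVN libraries 15 and 24. The 6 female *Nnat*+/-p libraries lie below the 4 female *Nnat*+/+ libraries, and the ARC groups on HFD lie mostly above those on chow.

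In the ARC of chow-fed males no member was called between the genotypes or weight classes. *Sst* was at 48.2 and 58.8 CPM in *Nnat*+/+, at 86, 39.2, 52.6 and 48.2 CPM in non-obese and at 98.9, 69.4, 63.6 and 65.9 CPM in obese *Nnat*+/-p mice. The obese minus *Nnat*+/+ difference of *Sst* was 0.46 on the log2 scale, with a 95% interval of -0.07 to 0.98. In the same libraries the summed ARC markers were at 200 to 215 CPM in obese and 81.6 to 92 CPM in *Nnat*+/+ mice. Astrocyte markers were at 339 to 538 and 142 to 158 CPM. Both lists were without overlap, but against only 2 *Nnat*+/+ libraries. Non-obese mice, at 63.6 to 183 CPM of ARC and 146 to 324 CPM of astrocyte markers, overlapped *Nnat*+/+ mice. The part of these markers in the *Sst* levels was not tested. *Tac2* was the member with the lowest p in this set. It was at 3.33, 24.9, 2.52 and 13.3 CPM in non-obese and at 2.58, 6.02, 3.56 and 2.84 CPM in obese mice, so that the groups overlapped and 2 non-obese libraries stood above the rest. The obese minus non-obese difference was -1.54 (SE 0.64, unadjusted p = 0.0241, edgeR adjusted p = 0.999). The shares of 14658 genes called were 0.0205% for obese against *Nnat*+/+, 0.0136% for non-obese against *Nnat*+/+ and 0.00682% for obese against non-obese. Only 2 *Nnat*+/+ libraries limit both comparisons with *Nnat*+/+.

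High fat feeding went with higher *Sst* in the ARC. Weight differed with diet too. Labelled weights of wild-type ARC libraries were 31.4 and 33.5 g on chow and 37.4 to 43.9 g on HFD. *Nnat*+/-p mice were at 27.4 to 34.3 g (non-obese) and 38.8 to 46.5 g (obese) on chow, and at 38.2 to 43.1 g on HFD. Diet and weight therefore cannot be told apart in wild-type mice or against non-obese ones. Wild-type mice on HFD held a lowest, median and highest *Sst* of 60.6, 121 and 257 CPM, against 48.2 and 58.8 CPM on chow. *Nnat*+/-p mice on HFD held 208, 163, 168 and 115 CPM, and no chow-fed *Nnat*+/-p library exceeded 98.9 CPM. Across genotypes the means were 145 ± 57.5 CPM on HFD (SD, n = 10) and 63.1 ± 18.2 CPM on chow (SD, n = 10). In each genotype every HFD library was above every chow library of that genotype, by as little as 60.6 against 58.8 CPM in wild-type mice, a pattern shown by 7.52% of 15753 genes in wild-type and 0.622% in *Nnat*+/-p mice.

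*Sst* rose 2.43-fold in wild-type mice on HFD (1.28 on the log2 scale, SE 0.35, edgeR adjusted p = 0.19), where 1.16% of genes were called, 0.495% as higher. This call rests on 2 chow libraries, and without replicate 33 or 34 the difference was 1.15 or 1.45 and was no longer called (adjusted p = 0.726 to 0.939). In those 2 fits 3 to 12 genes were called in all, against 182 with both libraries. The comparisons of *Nnat*+/-p mice on HFD with those on chow were added after the values had been seen. *Sst* rose 2.2-fold against obese chow-fed mice (1.14, SE 0.28, edgeR adjusted p = 0.11, 1.06% of genes called as higher) and 2.87-fold against non-obese ones (1.52, SE 0.29, edgeR adjusted p = 0.0108, 2.44% of genes called, 1.74% as higher). The call against obese mice was lost without replicate 41, 42 or 50 (log2 difference 1.09, 1.09 and 1), and that against non-obese mice held without each replicate in turn. Leaving out 1 replicate moved the count over all genes from 200 to between 13 and 544 against obese, and from 385 to between 42 and 759 against non-obese mice. The 2 contrasts share the HFD libraries.

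**Figure D3:**
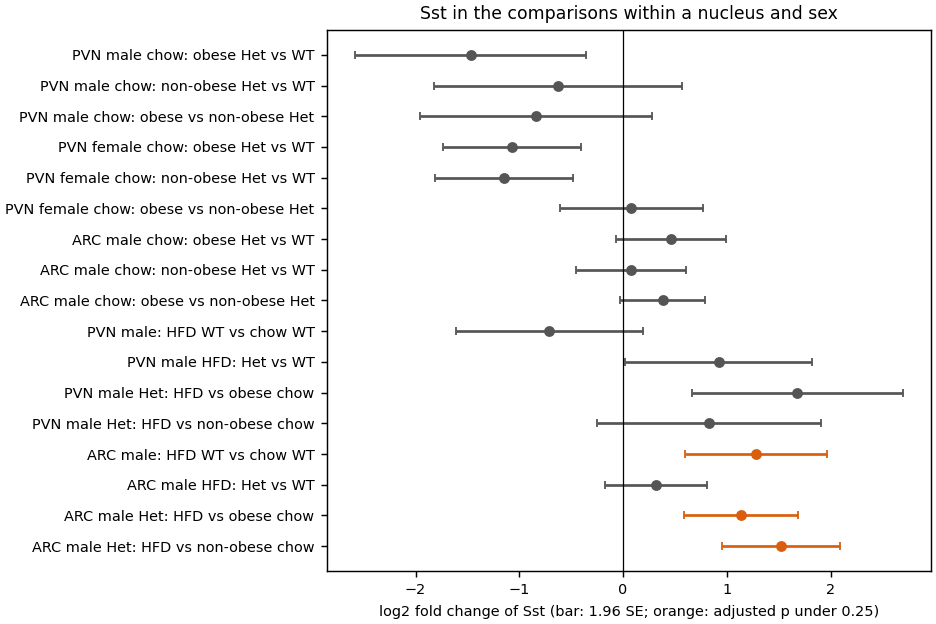
Fitted *Sst* difference (log2 fold change, point) in each comparison within a nucleus and sex, in orange where edgeR called it. The bar is an approximate 95% interval from the SE. Of those drawn, the 3 ARC comparisons of HFD with chow are the called ones. The bars of both female *Nnat*+/-p against *Nnat*+/+ comparisons, and of obese against *Nnat*+/+ males in the PVN, lie below 0 without a call. In the PVN of males on HFD, the bars of *Nnat*+/-p against *Nnat*+/+ and against obese chow-fed *Nnat*+/-p mice lie above 0, also without a call.

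*Ghrh*, whose product opposes that of *Sst* at the pituitary, was also above chow on HFD in wild-type mice, from lower counts. It was at 2.78 and 3.26 CPM in chow-fed wild-type ARC, and its lowest, median and highest values on HFD were 6.13, 9.21 and 29.4 CPM, without overlap. In *Nnat*+/-p mice it was at 6.22, 4.35, 0.148 and 2.27 CPM in non-obese and 7.38, 5.4, 5.09 and 4.73 CPM in obese chow-fed mice, and at 25.6, 6.92, 18.2 and 4.85 CPM on HFD. The HFD libraries of *Nnat*+/-p mice thus overlapped those of both chow groups. *Ghrh* rose against non-obese mice (2.19 on the log2 scale, SE 0.64, edgeR adjusted p = 0.159), a call lost without replicate 40, 43, 50 or 52. It missed the threshold against obese mice (1.30, SE 0.59, unadjusted p = 0.0363, adjusted p = 0.526) and in wild-type mice (2.07, SE 0.8, unadjusted p = 0.0149, adjusted p = 0.415).

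*Th* was at 8.04 and 8.01 CPM in chow-fed wild-type ARC and at a lowest, median and highest of 9.94, 19.8 and 34.7 CPM on HFD, again without overlap. The difference was 1.39 on the log2 scale (SE 0.5, unadjusted p = 0.0092, edgeR adjusted p = 0.353), but -0.28 when the shallow wild-type library 35, left out for its total of 271324 counts, was put back. By its plain total that library held 136 CPM of *Th*, from 37 counts, 313 CPM of the PVN marker *Oxt* and 40.5 CPM of *Sim1*. It had no count of *Agrp* or *Pomc*. In *Nnat*+/-p mice on HFD *Th* was at 21.1, 20.3, 15.9 and 10 CPM, and the difference from obese chow-fed mice was 0.87 (SE 0.4, unadjusted p = 0.0372, edgeR adjusted p = 0.526). *Tac2* was at 23.2, 12, 17.5 and 4.02 CPM in those HFD libraries, of which 3 were above all obese chow-fed ones (1.91, SE 0.61, unadjusted p = 0.00387, edgeR adjusted p = 0.269). *Gal* was at 60.5, 41.1, 34.9 and 10.4 CPM on HFD and at 23.2, 7.06, 14 and 17.7 CPM in obese chow-fed mice (1.24, SE 0.48, unadjusted p = 0.0156, edgeR adjusted p = 0.407). Replicate 53 was the lowest of the 4 HFD *Nnat*+/-p libraries for *Sst*, *Ghrh*, *Tac2*, *Th*, *Gal* and *Trh* alike.

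*Trh* and *Crh* overlapped between the diets in the ARC. *Trh* had a lowest, median and highest of 8.45, 33 and 47.4 CPM in wild-type mice on HFD and was at 13.3 and 13.9 CPM on chow, inside that range. *Gnrh1* had 8 to 16 counts in 4 of the 6 wild-type HFD libraries (1.9 to 4.07 CPM) and at most 5 counts in every other ARC library, and was not called (unadjusted p = 0.129). Of the 8 members tested, 3 had an unadjusted p under 0.05 in wild-type mice on HFD, 5 against obese and 2 against non-obese *Nnat*+/-p mice, where 8.54%, 8.89% and 10.1% of all genes did. The members' median difference was 1.32 on the log2 scale in wild-type mice (7 of 8 above 0), against 0.02 over all genes. *Gnrh1*, among those above 0, was too low to be tested in the chow groups alone and entered this fit through its HFD counts. The members' median was 1.02 against obese and 0.64 against non-obese chow-fed *Nnat*+/-p mice, where all genes had medians of -0.04 and -0.03. These medians describe members whose levels were partly correlated over the same libraries, and they test nothing about the members as a set. On HFD itself no member was called between the genotypes or had an unadjusted p under 0.05, where 0.0127% and 4.54% of all genes did.

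**Figure D4:**
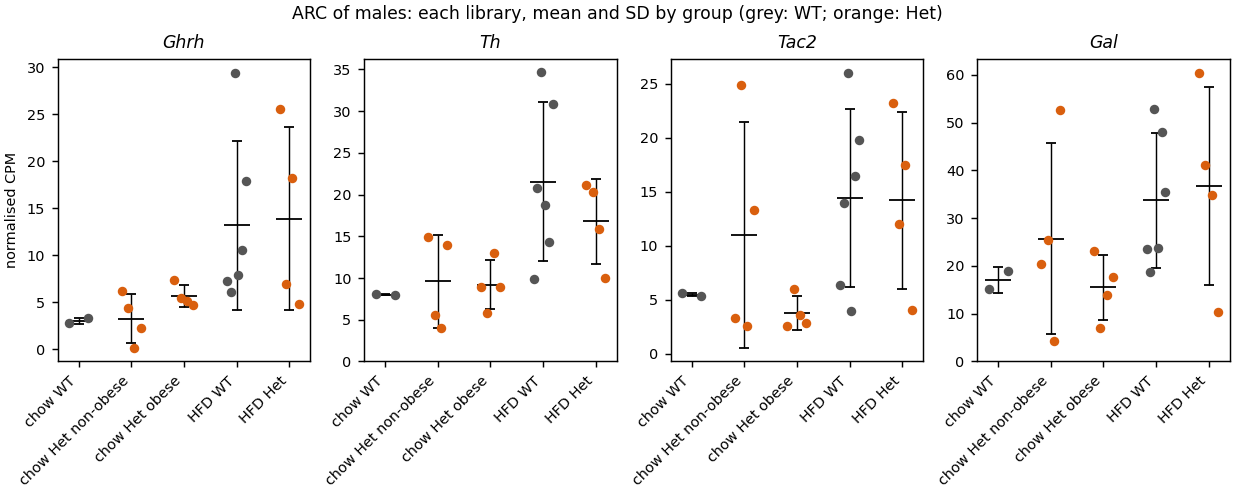
Levels of *Ghrh*, *Th*, *Tac2* and *Gal* in the male ARC (CPM, 1 point per library, with the group mean and SD), with *Nnat*+/+ in grey and *Nnat*+/-p in orange. The wild-type HFD libraries lie above the 2 wild-type chow libraries for *Ghrh* and *Th*, while those of *Tac2* and *Gal* overlap chow.

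Levels of some marker genes in the ARC differed between the diets as well. Whether this reflects the cells captured or the RNA per cell cannot be told apart. The 5 summed ARC markers ranged from 63.6 to 215 CPM on chow (median 139) and from 232 to 833 CPM on HFD (median 326), without overlap, and all 5 were counted in each HFD library. Markers of the neighbouring ventromedial hypothalamus (*Nr5a1*, *Fezf1* and *Sox14*) ranged from 8.09 to 128 CPM on chow (median 79.6) and from 3.76 to 114 CPM on HFD (median 26.6). Those of the lateral hypothalamus (*Pmch* and *Hcrt*) had medians of 30.2 and 12.2 CPM, those of forebrain excitatory neurons 505 and 341 CPM, and those of oligodendrocytes (*Mbp* and *Mog*) 341 and 245 CPM. The ranges of each of these lists overlapped between the diets. The summed PVN markers were at 16.1 to 57.4 CPM in *Nnat*+/-p mice on HFD and at 0.445 to 8.71 CPM in those on chow, without overlap, and at 0 to 21.8 and 2.08 to 6.19 CPM in wild-type mice. The ranges of the suprachiasmatic, thalamic, tanycyte, pars tuberalis, astrocyte, microglial and endothelial lists overlapped between the diets. Their part in the differences of *Sst*, *Ghrh*, *Th* and *Otp* was not tested. *Tbx3*, a transcription factor of the ARC and itself one of the 5 markers, rose in all 3 contrasts of HFD with chow (log2 differences 2.30, 1.16 and 2.00, edgeR adjusted p = 0.0169, 0.129 and 0.0027). The first call was lost without replicate 33, the second without replicate 41, 42, 50 or 51.

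**Figure D5:**
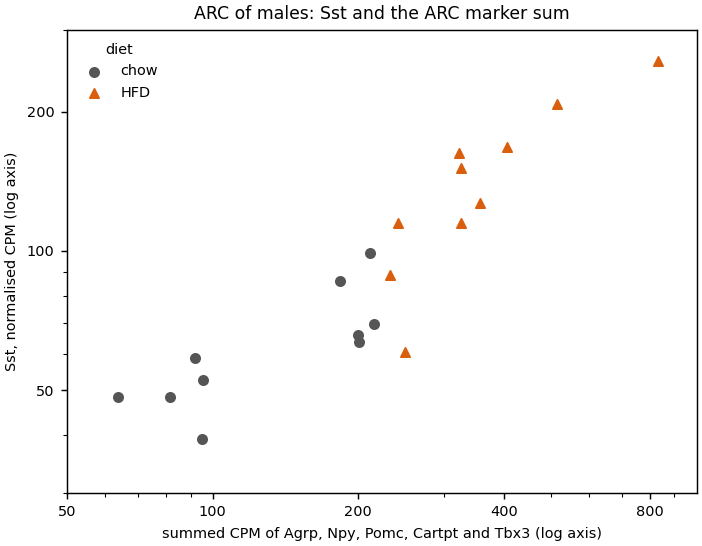
*Sst* (CPM, log axis) against the summed level of 5 ARC markers (CPM, log axis) in the 20 male ARC libraries, chow and HFD marked apart. The HFD libraries, at 232 to 833 CPM of ARC markers, lie to the right of the chow libraries, at 63.6 to 215 CPM, and mostly above them.

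In the PVN of wild-type males no member passed the threshold between the diets, where 1.43% of 17576 genes were called, 251 genes with replicates 15 and 24 and 974 without them. These mice too were heavier on HFD, at 37.4 to 42.9 g against 31.4 to 33.5 g on chow, so diet and weight cannot be told apart. *Ghrh* had a difference of -2.49 on the log2 scale (SE 1.03, unadjusted p = 0.0207, edgeR adjusted p = 0.389), which was -0.19 without replicates 15 and 24. It rested on replicate 15, at 17.6 CPM, where the other chow-fed *Nnat*+/+ libraries held 2.72 and 0.393 CPM. On HFD the *Nnat*+/-p minus *Nnat*+/+ difference of *Gal* was -1.32 (SE 0.62, unadjusted p = 0.0412, edgeR adjusted p = 1, 0.00569% of genes called), and -0.18 without the same libraries. Replicate 24 held 84.5 CPM of *Gal*, and the other 5 wild-type HFD libraries 4.38 to 13 CPM.

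*Sst* was at 100, 66.9 and 39.9 CPM in the PVN of *Nnat*+/-p males on HFD. Wild-type males on HFD held a lowest, median and highest of 21.2, 30.2 and 56.9 CPM. The *Nnat*+/-p minus *Nnat*+/+ difference on HFD was 0.92 on the log2 scale (SE 0.46, edgeR unadjusted p = 0.0543). Without replicates 15 and 24 it was 1.08 (SE 0.43, edgeR unadjusted p = 0.0154), and neither fit called it. The difference from obese chow-fed mice was 1.68 on the log2 scale (SE 0.52, unadjusted p = 0.00279, edgeR adjusted p = 0.409, 0.262% of genes called). Without replicates 15 and 24, neither of which is in the groups compared but which add to the estimate of spread, it was 1.69 (adjusted p = 0.182). Against non-obese chow-fed mice the difference was 0.83 (95% interval -0.26 to 1.91, 0.091% of genes called). *Crh* on HFD was at 65, 61.5 and 62 CPM in *Nnat*+/-p mice, and had a lowest, median and highest of 20.9, 87.2 and 101 CPM in *Nnat*+/+ mice. *Trh* was at 138, 120 and 126 CPM in the former and ranged from 64.9 to 212 CPM in the latter.

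Whether the members' differences by diet in wild-type mice, or between obese *Nnat*+/-p and *Nnat*+/+ mice, were unlike in the 2 nuclei was tested directly. Diet and weight cannot be told apart in the former. No member was called in either test, and all members had an adjusted p of 1. With a looser filter, a total above 1 count, edgeR called *Sst* (adjusted p = 0.00765 for diet and 0.0336 for obesity) and *Crh* (0.00207 and 0.0262) at nearly the same differences. The diet difference in wild-type mice, ARC minus PVN, was 1.98 on the log2 scale for *Sst* (SE 0.66, unadjusted p = 0.00366) and 4.57 for *Ghrh* (SE 1.53, unadjusted p = 0.004), in a test that called 0.00415% of 24072 genes. Without replicates 15 and 24 these were 1.85 and 2.29. The obese *Nnat*+/-p against *Nnat*+/+ difference, ARC minus PVN, was 1.94 for *Sst* (SE 0.7, unadjusted p = 0.00726) and 3.45 for *Ghrh* (SE 1.58, unadjusted p = 0.0322), in a test that called 0 genes by edgeR, with 1110 genes at an unadjusted p under 0.05 and 38 called by DESeq2. Without the same libraries they were 1.60 and 1.27. *Crh* gave -3.22 and -3.19 in the 2 tests (SE 1.26 and 1.43, unadjusted p = 0.013 and 0.0292), -2.80 and -2.64 without the same libraries, and 4 in both when ARC replicate 33, with 14 *Crh* counts, was left out.

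Of the receptors and binding proteins of the members, 9 of the 19 tested differed between the nuclei, 4 higher in PVN and 5 higher in ARC, where 34.4% of all genes differed. *Trhde*, which encodes an enzyme that degrades thyrotropin releasing hormone, was higher in PVN by 1.41 on the log2 scale, and the somatostatin receptors *Sstr2* by 1.22 and *Sstr1* by 0.51, the last a call lost without ARC replicate 34. The receptors *Sstr3* and *Drd1* were lower in PVN (-1.15 and -1.46). Of the dopamine genes, 3 of 7 differed: *Ddc*, which encodes the enzyme that follows tyrosine hydroxylase, and *Slc18a2*, the vesicular transporter, were higher in ARC (-1.03 and -1.94 for PVN minus ARC), and *Spr* was higher in PVN (0.53).

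Related ligands differed in 6 of 7 tested genes, 2 higher and 4 lower in PVN, again against 34.4% of all genes. *Ucn3*, a relative of *Crh*, was higher in PVN by 5.48, and *Penk*, the enkephalin precursor, by 1.34. *Adcyap1* (-1.83), *Nts*, which encodes neurotensin (-2.57), and *Tac1*, the substance P precursor (-0.58), were lower. Of the receptors for feedback hormones, 5 of 9 were lower in PVN, among them the prolactin receptor *Prlr* (-1.14) the oestrogen receptor *Esr1* (-0.79), the progesterone receptor *Pgr* (-0.93) and the thyroid hormone receptor *Thrb* (-0.56), and 2 were higher, among them *Ghr* (0.36). All 10 transcription factors of neuroendocrine neurons differed, 5 in each direction. *Sim1* (5.63), *Pou3f2* (3.22) and *Otp* (2.48), which are needed for the development of PVN neuroendocrine neurons, were higher in PVN, as was *Arnt2* (0.94), and *Tbx3* was lower (-1.93). The list genes named here were also called, in the same direction, without replicates 15 and 24.

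None of these list genes was called in the 9 chow comparisons. In the ARC on HFD, 1 of 9 feedback receptors, the growth hormone receptor *Ghr*, rose in wild-type mice (1.21, edgeR adjusted p = 0.142). It was at 10.5 and 19.3 CPM on chow and at 26.4 to 45.1 CPM on HFD, and the call was lost without either chow library. Against non-obese *Nnat*+/-p mice *Ghr* (0.80, adjusted p = 0.181 in edgeR) and *Esr1* (1.17, adjusted p = 0.138) rose, as did the dopamine transporter *Slc6a3* (3.36, adjusted p = 0.159). These 3 calls were lost without replicate 40 or 50, those of *Ghr* and *Esr1* also without 51, that of *Ghr* without 52 and that of *Slc6a3* without 43. *Otp* rose against non-obese (2.26, edgeR adjusted p = 0.0027) and obese mice (1.29, adjusted p = 0.143), to 37 to 81.8 CPM from 4.97 to 16.2 and 17.8 to 32.4 CPM, the call against obese mice being lost without replicate 37, 41, 42 or 50. *Sim2* was listed at 0 in all 4 *Nnat*+/-p HFD libraries and was at 0.889 to 4.53 CPM in the non-obese ones, a call lost without replicate 40, 50, 51 or 52. None of the 17 receptors and binding proteins tested was called in the ARC diet comparisons.

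In the PVN of wild-type males on HFD, the galanin receptor *Galr2* was lower than on chow (-4.03, edgeR adjusted p = 0.14, and -4.54 without replicates 15 and 24). DESeq2 did not call it (adjusted p = 0.313), and the call was lost without replicate 13 (-2.92, edgeR adjusted p = 0.429). *Slc6a3* was lower as well (-4.24, adjusted p = 0.136 in edgeR, and 0.402 without those libraries). *Adcyap1* had a difference of -2.01 (edgeR adjusted p = 0.0874), a difference that turned to 0.72 without them.

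The genes whose levels were most like those of each member were named by Spearman's rho over the libraries of a nucleus. These are descriptions, since the libraries share depth, capture and composition. In the male PVN *Trh* was most like *Pou3f2* (rho = 0.92, n = 19, and 0.92 over the 17 libraries without replicates 15 and 24). *Sst* was most like *Gtf3c3* (0.81), *Th* most like *Zfp414* (0.83) and *Gal* most like *Mif4gd* (0.78, n = 19). *Crh* was most like *Nrn1* (0.94, n = 19), which remained at 0.90 over 17 libraries, and *Crh* and *Trh* had a rho of 0.51 with each other over those 17. In the ARC *Sst* was most like *Otp* (0.92), *Pomc* (0.90) and *Six3* (0.89, n = 20), *Ghrh* most like *Serpina3n* (0.89) and *Th* most like *Dlk1* (0.90). *Trh* was there most like *Sulf1* and *Nrp1* (both 0.87), *Tac2* most like *Zfas1* (0.83) and *Gal* most like *Thsd7a* (0.87). Among the members themselves, *Sst* and *Ghrh* had a rho of 0.81 in the ARC, *Ghrh* and *Th* 0.75, *Sst* and *Th* 0.71, and *Tac2* and *Gal* 0.71. *Sst* and *Trh* had a rho of -0.06.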

How the data were processed

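The authors deposited raw counts per gene in 3 tables, of the female PVN, male PVN and male ARC, as whole numbers without normalization. Per the labels and the submitters' processing notes, low-input stranded total RNA libraries were aligned with STAR 2.5.0a to GRCm38. The counting tool and its strand setting are not given in the sources used here, although no annotated gene overlaps a member. Symbols of 53274 of 53379 identifiers came from GENCODE. Of 53 libraries, 49 were used: replicates 5, 7 and 35 had totals of 2302, 812815 and 271324 counts, and replicate 32 is labelled ARC but lies in the PVN table. No 2 libraries held identical counts.

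The counts were modelled with edgeR 4.0.16 under R 4.3.3 (filterByExpr with a minimum count of 10, TMM factors, quasi-likelihood test, two-sided), adjusted by Benjamini-Hochberg over all genes tested and called at an adjusted p under 0.25. Each chow comparison used the 3 groups of its nucleus and sex, each HFD comparison all male groups of its nucleus, and the PVN against ARC contrast is the mean over the 5 matched groups. Tests between effects used all 13 groups. A count of 0 was taken to allow 3 counts, which covers counting error only. Scripts were tested on simulated data.

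All members are described. A member gets a fold change where its unadjusted p was under 0.05, and in PVN against ARC always. List genes are named where called, at most 5 per list and comparison. For each member with a mean of at least 5 CPM at least the gene with the highest rho is named. *Nnat*, marker lists where they bear on a result, and fold changes or intervals of members that missed this rule are given besides. An oligodendrocyte marker and a feedback receptor are not reported here. The members and lists were chosen with earlier results of these data known, and the 4 comparisons of *Nnat*+/-p mice on HFD with those on chow were added after the values were seen. Alternatives were DESeq2 1.42.0, RLE factors, all genes with a total count over 1, an adjusted p under 0.05, only the 2 groups compared, all labelled libraries, replicates 39 and 40 summed, 4 libraries with conflicting weights left out, a block of the 15 PVN and ARC library pairs matched by labelled weight, each replicate left out, and, chosen after seeing the data, libraries 15 and 24 left out.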

Additional observations from a re-analysis of the deposited data

Results flagged for a closer look

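In 11 of 56 pairs of a member and a group of 4 to 10 libraries, 1 library stood apart, judged by the share of the group's range taken by its gap to the nearest library. Where all other libraries held 0, that share is at its highest by construction. The usual rate by chance, about 1 in 20, therefore does not apply to members near 0. *Crh* did so in ARC at 1.11 CPM (HFD *Nnat*+/+ replicate 45), 4.37 CPM (non-obese replicate 43) and 0.858 CPM (obese replicate 36). *Gnrh1* did so at 1.3 CPM (ARC HFD *Nnat*+/-p replicate 52), 0.667 CPM (ARC non-obese replicate 38), 12.8 CPM (female *Nnat*+/+ replicate 3) and 5.18 CPM (male PVN obese replicate 17). *Sst* stood apart at 98.9 CPM in ARC obese replicate 36. *Tac2* did so in the male PVN at 0.507 CPM (obese replicate 21) and at 9.39 CPM in HFD *Nnat*+/+ replicate 24, the library with few PVN markers, where *Gal* also stood apart at 84.5 CPM.

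No member, but 3 list genes, differed between the sexes in the obese *Nnat*+/-p against *Nnat*+/+ contrast of the PVN (female minus male, edgeR adjusted p), where 4.22% of all genes did, a count of 1015 that ran from 0 to 2131 when 1 library was left out. *Ghrhr* gave -11.8 on the log2 scale (0.22), from 14.8 CPM in female *Nnat*+/+ replicate 3 alone and none in the other 3 *Nnat*+/+ and the 3 obese females, *Adcyap1* 2.85 (0.225) and *Tac1* 2.59 (0.226). Without libraries 15 and 24 these were -14.23 (0.356), 0.15 (1) and 2.42 (0.366), so none was called.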

How the results depend on the processing

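Replicate numbers pair no libraries, and labelled weight was used to pair them only across the nuclei. Within a nucleus, ARC replicates 39 and 40 share a weight, as do female *Nnat*+/+ PVN replicates 1 and 2. Blocking the 15 matched weights in PVN against ARC, which was not applied to the tests between effects, left 6 of the 8 members called between PVN and ARC in place of 7, the one lost being *Th* (0.15). When all genes whose counts summed to more than 1 were tested, the number of members called was 1 in obese against *Nnat*+/+ male PVN, 1 in non-obese against *Nnat*+/+ female PVN, 3 for HFD in wild-type PVN, 5 for HFD in wild-type ARC, 1 and 3 for HFD against obese chow-fed *Nnat*+/-p mice in PVN and ARC, and 2, 2 and 1 in the tests between effects (obesity by nucleus, diet by nucleus, obesity by sex). DESeq2 called 1 member (*Sst*) in each female comparison with *Nnat*+/+ (adjusted p = 0.227 and 0.171), and 2 for HFD in wild-type ARC and against obese mice. Fitting only the 2 groups gave 3 for HFD in wild-type ARC, 2 against obese and 1 against non-obese mice. With all labelled libraries HFD in wild-type ARC gave 2, and *Th* reversed to -0.28. Leaving out libraries 15 and 24 gave 1 for HFD against obese mice in PVN. At an adjusted p under 0.05, HFD in ARC gave 0 in wild-type mice, 0 against obese and 1 against non-obese mice.

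Leaving out in turn each replicate of groups of 2 to 5 gave 0 to 0 members for HFD in wild-type ARC, 0 to 3 against obese and 1 to 2 against non-obese mice, 0 to 1 for HFD in wild-type PVN, 0 to 1 against obese mice in PVN, and 6 to 8 between nuclei. *Gnrh1* between nuclei ranged from -1.54 to 0.39 (0.19, 0.23 and 0.39 were the reversed values), and *Crh* in the tests of effects between nuclei from -7.37 to 4 for obesity and from -4.23 to 4 for diet. The cause of these changes was not tested. Of the fitted differences of single members, 534 kept direction and side of the threshold, 26 passed it, 16 lost it and 6 reversed. Over all genes, calls for HFD in wild-type PVN went from 251 to 974 without libraries 15 and 24. DESeq2 called 168 and 255 genes in obese and non-obese females against *Nnat*+/+ (12.5% and 31.8% as higher) where edgeR called 2 and 1, 38 in obese against *Nnat*+/+ male PVN (71.1% as higher) where edgeR called 4 (50%), and 43 for diet by nucleus where edgeR called 1. For HFD it called 472 in wild-type PVN (31.6% as higher, against 21.9%), 422 and 205 in PVN against obese and non-obese mice (46 and 16 by edgeR), and 358, 358 and 620 in ARC of wild-type mice and against obese and non-obese mice (182, 200 and 385). RLE factors moved the median of all genes from -0.15 to -0.26 in obesity by sex and from 0.09 to 0.22 in diet by nucleus. Few libraries per group and low counts of *Gnrh1*, *Crh* in ARC and *Tac2* in PVN limit these results.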

Other observations

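The library labelled replicate 32 (ARC, *Nnat*+/-p, HFD), which lies in the PVN table, held 105 CPM of *Crh*, 129 of *Trh*, 53.1 of *Sst*, 2.59 of *Ghrh*, 2.04 of *Gnrh1*, 0 of *Tac2*, 19.2 of *Th* and 20.8 of *Gal*, by its plain total of 7348988 counts. It held 159 CPM of *Sim1* and 584 CPM of *Oxt*. The shallow library labelled replicate 35 (ARC, *Nnat*+/+, chow) held 18.4 CPM of *Crh*, 107 of *Trh* and 136 of *Th*, from 5, 29 and 37 counts, with none of *Sst*, *Ghrh*, *Gnrh1*, *Tac2* or *Gal*, and 203 CPM of *Avp*. It also held 313 CPM of *Oxt* and 40.5 CPM of *Sim1*, with no count of *Agrp* or *Pomc*. Its labelled weight, 32.45 g, is also that of PVN-labelled replicate 15, the library with few PVN markers and 196 CPM of ARC markers.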
